A study of Mus musculus with 47 samples.

Results

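Luminal epithelial cells of the mouse mammary gland were compared between lactation day 10 (L10) and day 2 of involution (Id2), the second day after forced weaning. The libraries were chosen by their labels alone, 3 luminal libraries at L10 and 3 at Id2, which makes 6 of the 47 samples described and of the 46 with values. All mice were of the inbred strain FVB/N. L10 dams were still nursing, and the Id2 dams had nursed until day 10 after birth before their pups were removed. Each library came from a separate sort of cells pooled from 4 mice, in which dissociated glands were depleted of blood, endothelial and stromal cells by surface antigens and the Lin- CD24+ CD29lo cells were kept as luminal and the Lin- CD24+ CD29hi cells as basal. The gates were adjusted slightly from sort to sort, so that the spread between libraries includes the sort as well as the animals. The study profiled 8 time points, among them virgin mice of 10 weeks (W10) and 4 months (M4), early (P3) and mid pregnancy (P14), early lactation (L3) and regressed glands 4 weeks after weaning (Iw4). The comparison asks how the milk-making cells changed in the first days after milk removal stopped.

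During lactation the luminal alveolar cells synthesize casein, whey proteins, lactose and fat and secrete them into the lumen. When the young are weaned, milk stays in the gland, and the first phase of involution begins. It is reversible, and it is known for signaling by LIF through STAT3, for a rise in acute phase and defence proteins, for lysosome-dependent death of alveolar cells and for the uptake of residual milk and dying cells by their neighbors. Remodeling of the matrix by proteases and refilling of the gland with adipocytes follow later.

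The libraries held 8578999, 7756125 and 7966921 reads on genes at Id2 (replicates 2, 4 and 6) and 7777828, 20023054 and 17457370 at L10 (replicates 4, 5 and 6), and all values below are given in these orders. Levels are in CPM, the reads of a gene scaled by the effective library size, as deposited, and changes are differences of log2(CPM + 1), Id2 minus L10, which understate the change of genes with low values. The r2 of the log2 values was 0.913 to 0.941 among the Id2 libraries, 0.861 to 0.902 among the L10 libraries and 0.815 to 0.878 between the groups. The Id2 libraries were amplified in the same batch as W10 and sequenced in a lane of their own, and the L10 libraries were amplified with L3 and sequenced in another lane. Batch and lane therefore cannot be told apart from time point in this comparison, and the levels at W10 and L3 are set beside those of the main genes.

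The luminal label held in all 6 libraries. The 10 luminal markers, among them *Epcam*, *Krt8* and *Krt18*, summed to 5816, 4918 and 4929.7 CPM at Id2 and 6298, 6887 and 7525 CPM at L10, and none of them passed the test. Markers of other cells were also detected. The 13 markers of basal (myoepithelial) cells summed to 169.5, 344 and 236 CPM at Id2 and to 413, 2723 and 1067 CPM at L10, with L10 replicate 5 the highest. The 10 fibroblast markers summed to 277, 547 and 5777 CPM at Id2 and 123, 762 and 1102 CPM at L10, so Id2 replicate 6 stood apart. Its *Col1a1* level, the most abundant of that list by CPM and not per length, was 2017 CPM, against 87.1 and 199.7 CPM in the other Id2 libraries and 9.58 to 266 CPM at L10. The 17 macrophage markers, of which *Lyz2* was the most abundant by mean CPM, summed to 70.0, 313 and 349 CPM at Id2 and 43.6, 175.6 and 44.2 CPM at L10. The endothelial markers ranged from 155.8 to 712 CPM over the 6 libraries, the pericyte markers from 171.6 to 308 CPM, the lymphocyte markers from 5.93 to 165 CPM, mostly from *Cd3e*, and the 2 neutrophil markers measured from 11.2 to 32.3 CPM. The adipocyte markers, of which *Lipe* was the most abundant by CPM, summed to 209, 216 and 159 CPM at Id2 and 44.7, 124 and 110 CPM at L10, without overlap, although *Plin1* was at 0 in 5 of the 6 libraries. The T cell marker *Cd8a* was at 0 in 5 as well. Of these lists 3 basal markers fell (*Krt5*, *Krt14* and *Krt17*), 2 macrophage markers rose (*Cx3cr1* and *Fcer1g*, neither of them in edgeR or when fitted without Id2 replicate 6, and *Fcer1g* not in DESeq2 or without Id2 replicate 4 or L10 replicate 4 or 6 either, with adjusted p up to 0.048) and no fibroblast, endothelial, pericyte or adipocyte marker passed. Without Id2 replicate 2, 7 macrophage markers passed. In sorted bulk samples, fewer cells of a type and less RNA per cell cannot be told apart.

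**Figure D1:**
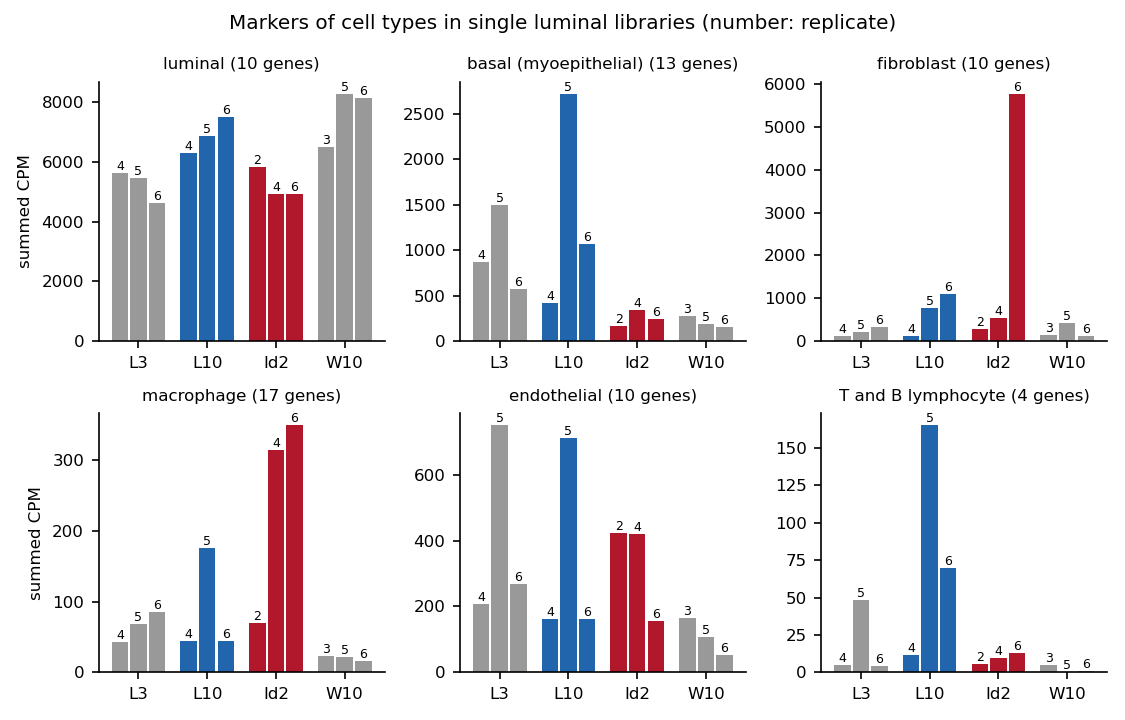
Summed CPM (vertical axis) of 6 marker lists in single luminal libraries at L3, L10, Id2 and W10, with the replicate number on each bar and the number of genes measured in each title. The fibroblast sum of Id2 replicate 6 (5777 CPM) and the basal sum of L10 replicate 5 (2723 CPM) stand above the other libraries of their lists, while the luminal markers are high in all.

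Of 17078 genes tested, 779 (4.56%) changed at least 2-fold at a false discovery rate (FDR) under 0.01, 367 higher (2.15%) and 412 lower (2.41%) at Id2. The test was limma's moderated test with Benjamini-Hochberg adjustment over all genes, and "passed", "rose" and "fell" mean this threshold throughout. The median change of the genes that rose was 1.65 and that of the genes that fell -1.72, against -0.01 over all genes. The 3 Id2 and 3 L10 libraries did not overlap for 735 of the 779 genes, a separation that 24.9% of all genes also showed. The spread behind the test was estimated over all 46 libraries. Fitted on the 6 libraries alone, no gene passed (3380 had an unadjusted p under 0.05, and the lowest adjusted p was 0.022), while on the recovered reads of all libraries edgeR called 586 and DESeq2 1038 genes. With each library left out in turn the count fell most without Id2 replicate 4 (425 genes) and Id2 replicate 6 (470 genes). Below, a call that held or was lost without a library refers to these 6 fits. Rescaled after leaving out the 8 main milk protein genes, all changes shifted by a median of -0.24, and 210 genes rose and 803 fell. Rescaled by median ratios, the shift was 0.06, and 456 genes rose and 356 fell.

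**Figure D2:**
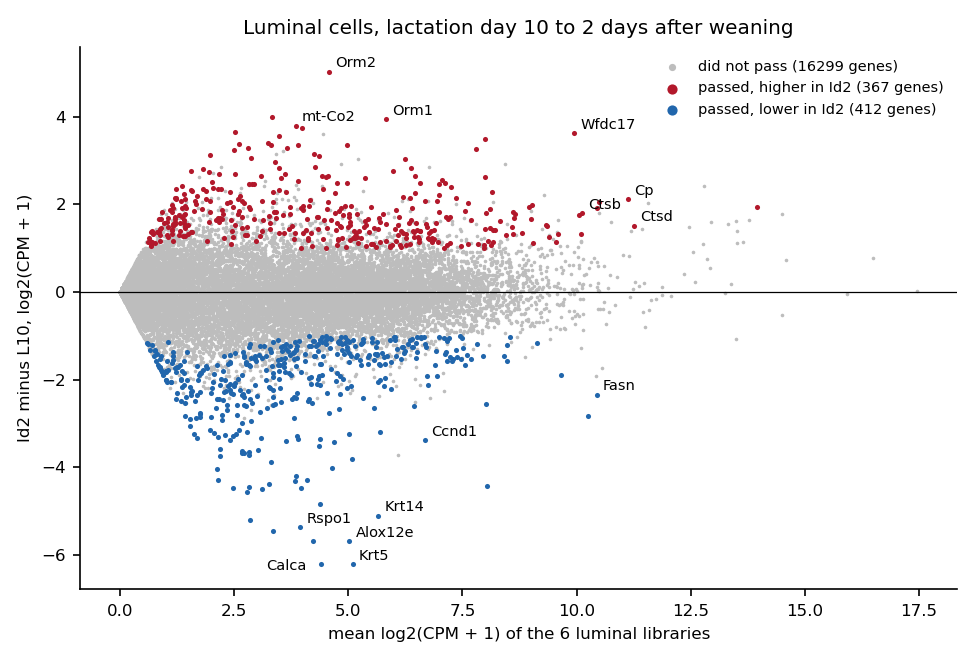
Change from L10 to Id2 (vertical axis, log2(CPM + 1)) against the mean level in the 6 luminal libraries (horizontal axis, log2(CPM + 1)) for 17078 genes. Red points are the 367 genes that rose, blue points the 412 that fell and grey points the rest; the named genes reach from *Orm2* at 5.03 to *Krt5* at -6.23.

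The lysosome is the acidic compartment in which proteins, lipids and glycans are broken down. Of 38 lysosomal genes, for hydrolases, membrane proteins and the transcription factors *Tfeb* and *Tfe3*, 11 rose and 1 fell, and the median change was 0.87. *Ctsb* (ENSMUSG00000021939), which encodes the cysteine protease cathepsin B, was at 2419, 2039 and 1795 CPM at Id2 and at 511, 562 and 715 CPM at L10, a change of 1.81 (standard error 0.26, adjusted p = 1.8e-05), or 3.5-fold by the group means. Every Id2 library was above every L10 library, and also above W10 (415 to 475 CPM), which shared the amplification batch of Id2, and L3 (587 to 735 CPM), which shared that of L10. *Ctsl* (ENSMUSG00000021477), for the related cathepsin L, was at 1567, 2471 and 1914 CPM against 421, 660.4 and 685 CPM, a change of 1.76 (standard error 0.31, adjusted p = 1.7e-04). Its lowest Id2 library was above the highest of L3 (883 to 1279 CPM). *Ctsa* (ENSMUSG00000017760), for a carboxypeptidase that also stabilizes lysosomal glycosidases, was at 852, 717 and 666 CPM against 228, 192 and 226 CPM, a change of 1.78 (standard error 0.24, adjusted p = 5.7e-06). These were narrow groups, with a mean of 745 ± 96.4 CPM at Id2 and 215 ± 20.4 CPM at L10 (SD, n = 3). *Ctsd* (ENSMUSG00000007891), for the aspartic protease cathepsin D, had the highest CPM of the list and rose by 1.52 (adjusted p = 4.1e-04), from 993, 1656 and 1813 CPM to 4159, 3993 and 4201 CPM. Of its exon bases 31.5% overlap another protein-coding gene in the GENCODE M21 annotation, so part of its reads is uncertain.

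The other lysosomal genes that rose include genes of its membrane and of the breakdown of lipids and proteins. *Scarb2*, for a receptor in the lysosomal membrane, rose from 55.2, 66.4 and 90.5 CPM to 276, 187 and 176 CPM, and *Lamp2*, for a major membrane glycoprotein, from 326, 349 and 474 CPM to 1022, 1030.1 and 1222 CPM. *Asah1* (acid ceramidase) changed by 1.57. These 7 genes (*Ctsb*, *Ctsl*, *Ctsa*, *Ctsd*, *Scarb2*, *Lamp2* and *Asah1*) passed with each library left out in turn. *Ctsc* (1.55) and *Tpp1* (1.05), both for peptidases, did not. *Ctsc* and *Tpp1* were lost in 5 of the 6 fits, with adjusted p up to 0.071 and 0.034, all but those without L10 replicate 5 for *Ctsc* and without L10 replicate 6 for *Tpp1*. *Pla2g15*, for a lysosomal phospholipase that was not in the list, was among the largest rises of all genes, from 0.665, 2.61 and 4.75 CPM to 55.7, 36.7 and 25.8 CPM (3.57, adjusted p = 1.3e-05). The gene that fell was *Tfeb*, for a transcription factor known to activate lysosomal genes. It was at 5.73, 5.05 and 6.92 CPM at Id2 and 15.4, 15.9 and 11.6 CPM at L10 (-1.14, adjusted p = 0.0043), and its call was lost without Id2 replicate 2 or 4 or L10 replicate 4 or 5 (adjusted p up to 0.027).

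Macrophages also express many of these genes. The summed macrophage markers were lowest at Id2 in replicate 2 (70.0 CPM, against 313 and 349 CPM). Of the lysosomal genes that rose and are named above, *Ctsb*, *Ctsa*, *Scarb2*, *Asah1* and *Tpp1* had their highest Id2 level in that library, *Ctsl*, *Lamp2* and *Ctsc* their lowest, and *Ctsd* lay between the others. *Ptprc*, which encodes CD45, was at 1.38, 13.3 and 18.3 CPM at Id2 and 1.6, 5.07 and 0.345 CPM at L10, and the macrophage lysozyme gene *Lyz2* at 1.58, 47.7 and 38.9 CPM and 17.6, 55.1 and 7.08 CPM. Whether cells of that type contributed to the level of a single lysosomal gene was not tested.

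TFEB and its relatives are known to bind a short motif with the core CACGTG near the start of lysosomal genes. The window from 250 bases before to 50 bases after the RefSeq gene start (GRCm38.p6) was searched for these 6 letters, which read the same on both strands. Of the lysosomal list, 32 of 38 genes had a window and 12 of them (37.5%) held CACGTG, against 11.0% of 11722 tested genes and 7.15% of all 32851 windows. The letters were in 3 of the 7 genes that rose and had a window and in 9 of the 25 others. Windows of the 3 are shown from 250 bases before the start to base 20 of the transcript, 5′ to 3′ on the strand of the gene, with CACGTG in capitals. In *Ctsa* the matches begin 12 bases before and 5 bases after the start (plus strand, chr2:164833523-164833792), in *Ctsd* 245 and 98 bases before (minus strand, chr7:142387808-142388077) and in *Ctsl* 236 bases before (minus strand, chr13:64370501-64370770). A match is a run of letters, and binding was not measured.
Ctsa: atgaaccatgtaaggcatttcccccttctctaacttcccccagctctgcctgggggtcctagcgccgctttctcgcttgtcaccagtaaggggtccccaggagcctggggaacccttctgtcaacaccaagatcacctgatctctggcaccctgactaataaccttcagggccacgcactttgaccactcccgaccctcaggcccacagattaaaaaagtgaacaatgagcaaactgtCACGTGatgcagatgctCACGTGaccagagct
Ctsd: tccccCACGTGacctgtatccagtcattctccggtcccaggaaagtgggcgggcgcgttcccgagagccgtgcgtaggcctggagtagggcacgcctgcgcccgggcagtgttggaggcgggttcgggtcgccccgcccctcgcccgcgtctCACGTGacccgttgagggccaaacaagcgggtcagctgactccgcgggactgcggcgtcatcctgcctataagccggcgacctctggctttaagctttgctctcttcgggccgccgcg
Ctsl: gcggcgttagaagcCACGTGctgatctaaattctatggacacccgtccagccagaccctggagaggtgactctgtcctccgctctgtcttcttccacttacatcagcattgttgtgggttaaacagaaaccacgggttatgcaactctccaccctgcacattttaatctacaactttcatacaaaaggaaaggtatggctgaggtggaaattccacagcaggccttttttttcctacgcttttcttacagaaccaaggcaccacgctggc

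The vacuolar proton pump acidifies the lysosome. Of 20 subunit genes, 2 rose and 1 fell (median 0.63). *Atp6v0a1*, a membrane subunit, rose from 81.4, 70.3 and 74.4 CPM to 159, 195 and 149 CPM (1.14, adjusted p = 4.1e-04) and kept its call with each library left out. The call of *Atp6v0e* (1.13) was lost without Id2 replicate 2 or 4 or L10 replicate 5 or 6 (adjusted p up to 0.031), and that of the regulatory subunit isoform *Atp6v1c2* (-2.44) held only without L10 replicate 5 (adjusted p otherwise up to 0.061). Neither rise passed when values were rescaled without the milk protein genes. Of 26 autophagy genes, which lead cell material to the lysosome, only *Atg9b* rose and *Tfeb* fell. *Atg9b* was low, at 2.37, 2.81 and 5.9 CPM against 0.399, 1.59 and 0.0863 CPM, was called by neither edgeR nor DESeq2 and was lost without Id2 replicate 4 or 6 or L10 replicate 4 or 6 (adjusted p up to 0.069).

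**Figure D3:**
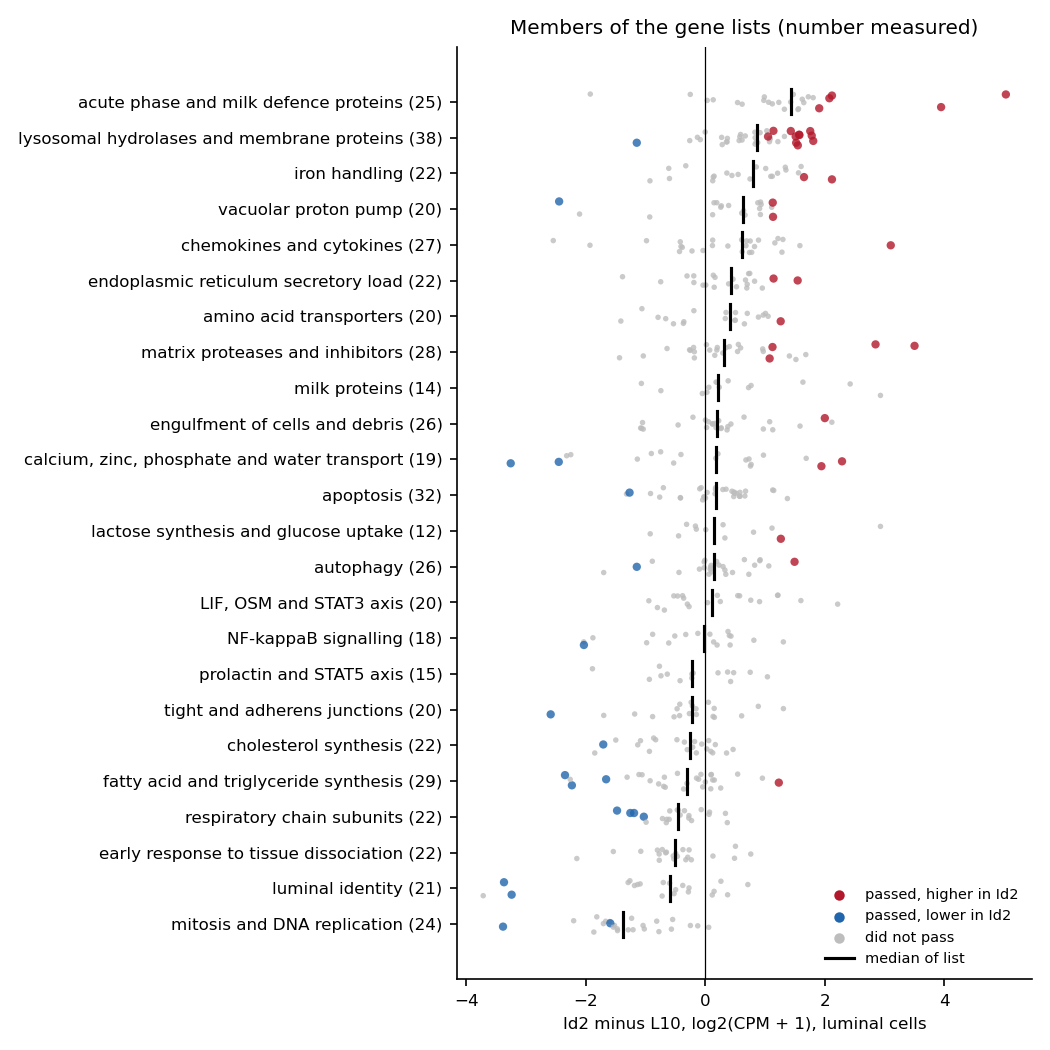
Change from L10 to Id2 (horizontal axis, log2(CPM + 1)) of every measured member of 24 gene lists (rows, with the number of genes), with the list median as a black bar. Red and blue points passed higher and lower, and the lists with the most of them are the lysosomal list (11 higher, 1 lower) and the acute phase list (5 higher).

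Acute phase and milk defence proteins are secreted in inflammation and accumulate in the secretion of the dry gland. Of 25 such genes 5 rose, none fell, and the median change was 1.43. In the basal libraries, whose cell type markers also moved as given below, 10 of the 25 rose and none fell (median 2.11). The largest rise of all genes was that of *Orm2* (ENSMUSG00000061540), for the plasma protein orosomucoid 2. It was at 231, 126 and 84.2 CPM at Id2 and 1.06, 2.97 and 7.68 CPM at L10 (5.03, standard error 0.49, adjusted p = 2.0e-08). *Orm1* (ENSMUSG00000039196) was at 253, 207 and 208 CPM and 4.39, 13.991 and 36.0 CPM (3.95, standard error 0.60, adjusted p = 3.2e-05). The groups did not overlap for either gene, and *Orm1* was at no more than 1.08 CPM in any luminal library outside L3, L10 and Id2. *Orm1* and *Orm2* are near-identical copies, so the division of reads between them is uncertain. *Cp* (ENSMUSG00000003617), for the iron oxidase ceruloplasmin, was the most abundant of the 5 by CPM, at 4031, 5517 and 4508 CPM against 849, 1240.4 and 1151 CPM (2.12, adjusted p = 2.7e-04). Its 3 Id2 libraries were above all of W10 (312 to 705 CPM) and L3 (1341 to 2132 CPM). *Orm2*, *Orm1* and *Cp* passed with each library left out, but *Orm1* did not in DESeq2 or with a pseudocount of 0.1. *Tlr2*, a receptor for bacterial lipoproteins (2.08), and *Lbp*, for the endotoxin-binding protein (1.91), had separate groups but were sensitive to single libraries, *Tlr2* in 5 of 6 fits (all but that without L10 replicate 5, adjusted p up to 0.03) and *Lbp* in all 6 (up to 0.039).

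Most of the other defence genes had changes above 0 that did not pass. *Lcn2*, for the siderophore-binding protein lipocalin 2, was at 21508, 16684 and 15129 CPM and 5085, 6287 and 6589 CPM (1.56, adjusted p = 0.025). Its groups did not overlap. *Ltf*, for the milk protein lactoferrin, was at 19273, 19819 and 13279.6 CPM and 4889, 14856 and 6746 CPM (1.12, adjusted p = 0.37), and L10 replicate 5 lay within the range of Id2. Among 22 genes of iron handling, *Cp* and the ferritin light chain gene *Ftl1* rose, the latter from 131, 97.4 and 117 CPM to 379.8, 460.4 and 272 CPM (1.65, adjusted p = 3.2e-05, up to 8.2e-04 with a library left out). *Wfdc17* (ENSMUSG00000069792), for a small secreted protein with a whey acidic protein domain that is also known from activated macrophages, was at 4149.7, 4168 and 2419 CPM against 164, 546 and 240.0 CPM (3.64, adjusted p = 0.0019). It was at 555 to 1971 CPM at L3 and 0.504 to 1.47 CPM at W10. The call of *Wfdc17* was lost without Id2 replicate 4 or L10 replicate 4 (adjusted p up to 0.015), and in edgeR (adjusted p = 0.0101). The summed macrophage markers were at 70.0, 313 and 349 CPM in the same Id2 libraries and at 43.6, 175.6 and 44.2 CPM at L10, where replicate 5 was the highest in both measures. At Id2, replicate 2 had the lowest sum and replicate 6 the highest sum and the lowest *Wfdc17*. Their part in the level of *Wfdc17* was not tested.

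LIF and related cytokines activate STAT3, the factor known to drive early involution. None of the 20 genes of this axis passed. *Lif* itself (ENSMUSG00000034394) had the largest change of the list, 2.22 (95% interval 0.88 to 3.55, adjusted p = 0.023). It was at 1146, 1357 and 1562 CPM at Id2 and 244, 384 and 256 CPM at L10. Its 3 Id2 libraries were above every other luminal library of the study, of which the highest, at W10, was at 490.3 CPM. *Igfbp5*, for an IGF-binding protein known from the involuting gland, was at 13076, 12598 and 16141 CPM and 4909, 4246 and 4554 CPM (1.60, adjusted p = 0.018). *Stat3* was at 778, 687 and 666 CPM and 795, 774 and 1076 CPM (-0.30, adjusted p = 0.47), and the feedback inhibitor *Socs3* at 384, 205 and 239 CPM and 97.4, 182 and 317 CPM (0.58, adjusted p = 0.39), with overlapping groups for both. Of 27 chemokine and cytokine genes only *Il6* (ENSMUSG00000025746) rose, from 1.73, 16.2 and 6.13 CPM to 47.8, 70.0 and 60.6 CPM (3.11, adjusted p = 0.0012), and this was lost without L10 replicate 4 (adjusted p = 0.0196) and in edgeR (adjusted p = 0.013). In the basal cells of the same sorts *Il6* was at 2489, 1511 and 760.0 CPM at Id2. Of 18 NF-kappaB genes only the inhibitor *Nfkbie* fell (-2.03), with overlapping groups and a call lost without Id2 replicate 2 or 4 or L10 replicate 4 or 5 (adjusted p up to 0.033).

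Of 28 genes for matrix proteases and their inhibitors, 4 rose, among them *Timp1*, *Adam9* and *Adam10*. *Timp1*, an inhibitor of matrix metalloproteinases, was at 40.9, 39.9 and 79.5 CPM against 2.79, 10.6 and 7.34 CPM (2.85), but passed in only 1 of the 6 fits with a library left out, that without L10 replicate 5 (adjusted p otherwise up to 0.043). The sheddases *Adam9* (1.08) and *Adam10* (1.13) cut proteins from the cell surface. *Adam9* was lost without Id2 replicate 4 or L10 replicate 4 (adjusted p up to 0.015) and *Adam10* in all 6 fits (up to 0.052). The metalloproteinase genes *Mmp2* (adjusted p = 0.98) and *Mmp3* (adjusted p = 0.12) did not pass and were highest in Id2 replicate 6, at 84.0 and 13.8 CPM, the library with the high fibroblast sum. The same library was the highest for several of the 12 largest rises, among them *Ccl11*, *Col12a1* and *Rasgrp3*. *Ccl11*, for the chemokine eotaxin, was at 9.68, 26.0 and 217 CPM at Id2 and 0.133, 3.12 and 2.33 CPM at L10, and *Col12a1*, for a fibril-associated collagen, at 27.5, 67.0 and 522 CPM and 3.46, 20.008 and 9.07 CPM, and neither passed without Id2 replicate 6 or without L10 replicate 4 (adjusted p up to 0.046 and 0.058, with changes of at least 2.77 and 2.17).

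Milk protein genes were still abundant at Id2. The 8 main ones took 32.3, 29.5 and 24.3% of the reads at Id2 and 18.9, 32.4 and 34.6% at L10, or 28.7% ± 4.04 and 28.6% ± 8.48 (SD, n = 3). The difference of 0.08 percentage points was far within the spread of the libraries (exact two-sided permutation test, p = 1.0, where the smallest possible with 3 against 3 is 0.10). None of the 14 milk protein genes passed. *Csn2* (ENSMUSG00000063157), for beta-casein, was at 225473, 150308 and 180653 CPM at Id2 and 99220.5, 222636 and 260625 CPM at L10, a change of 0.03 with a 95% interval of -1.67 to 1.73, so a change of more than 2-fold either way lies within that interval. At W10 it was at 1925 to 13376 CPM. *Wap*, for whey acidic protein, was at 43978, 23951 and 14547 CPM and 2803, 11476 and 15849 CPM (1.64, adjusted p = 0.34), with overlapping groups. *Lalba* (ENSMUSG00000022991), for the lactose synthase cofactor alpha-lactalbumin, was at 1909.7, 1250.2 and 365 CPM and 50.6, 179 and 209 CPM (2.93, adjusted p = 0.019), and *Csn1s2b* at 18657, 22295 and 10852 CPM and 466, 8769 and 7081 CPM (2.43, adjusted p = 0.065). Their groups did not overlap, with all Id2 libraries higher.

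Beta-casein transcription depends on prolactin through STAT5, which like STAT3 binds sites of the form TTCNNNGAA. The *Csn2* window (GRCm38.p6, minus strand, chr5:87699406-87699675) holds such a run 93 bases before the start, shown here in capitals since the levels of this gene are given above.
Csn2: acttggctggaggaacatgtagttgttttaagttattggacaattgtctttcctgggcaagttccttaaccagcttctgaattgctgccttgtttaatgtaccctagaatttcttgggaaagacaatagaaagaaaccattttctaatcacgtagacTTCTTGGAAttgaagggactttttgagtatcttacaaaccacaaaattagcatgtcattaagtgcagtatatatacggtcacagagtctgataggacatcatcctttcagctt
Over all genes, TTCNNNGAA stood in a window of 8.30% of the 11722 genes that had one, of 15 of the 220 such genes that rose (6.82%) and of 21 of the 303 that fell (6.93%). None of 15 genes of the prolactin and STAT5 axis passed. Its most abundant gene by CPM, the prolactin receptor gene *Prlr*, was at 1659, 802 and 1564 CPM and 656, 521 and 696 CPM (1.04, adjusted p = 0.45), and *Stat5a* at 83.6, 48.1 and 82.6 CPM and 145, 73.4 and 147 CPM (-0.74, adjusted p = 0.15).

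Lactating alveolar cells make much of the fat of milk themselves. Of 29 genes for fatty acid and triglyceride synthesis 3 fell and 1 rose (median -0.30). *Fasn* (ENSMUSG00000025153), for fatty acid synthase, was at 725, 693 and 468 CPM at Id2 and 2517, 2462 and 5006 CPM at L10 (-2.35, standard error 0.48, adjusted p = 0.0012), and at 2649.5 to 10083 CPM at L3. At W10, in the amplification batch of Id2, it was at 190 to 740 CPM, a range that holds the Id2 levels. Its call was lost without Id2 replicate 6 or L10 replicate 6 (adjusted p up to 0.014). *Acaca*, for the acetyl-CoA carboxylase that makes its substrate, changed by -1.66, and passed only with all libraries or without Id2 replicate 2 or L10 replicate 4 (adjusted p otherwise up to 0.043). Of the enzymes that complete a triglyceride, *Dgat2* fell from 15.8, 13.991 and 8.46 CPM to 2.77, 0.374 and 3.46 CPM (-2.23, adjusted p = 1.2e-04, up to 0.0044 with a library left out). *Dgat1* rose from 20.9, 23.996 and 11.6 CPM to 43.5, 44.9 and 42.7 CPM (1.23), lost without Id2 replicate 2, 4 or 6 or L10 replicate 6 (adjusted p up to 0.047). *Scd1*, the desaturase with the highest CPM of the list, was at 4356, 2140.5 and 5254 CPM and 3739, 3087 and 4919 CPM. *Srebf1*, for the lipogenic factor SREBP1, was at 232, 92.6 and 112 CPM and 373, 180.2 and 551 CPM (-1.31, adjusted p = 0.016), with overlapping groups.

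Of 22 cholesterol synthesis genes only *Mvk* (mevalonate kinase) fell, from 14.9, 26.0 and 23.2 CPM to 6.92, 5.43 and 4.88 CPM (-1.71, adjusted p = 0.0041), and it passed only without Id2 replicate 2 or L10 replicate 4 among the fits with a library left out (otherwise up to 0.022). The neighboring enzymes of the pathway had changes of -1.50 for *Idi1* (adjusted p = 0.024), -1.08 for *Pmvk* (adjusted p = 0.085) and -0.86 for *Mvd* (adjusted p = 0.24). Replicate 4 of L10 was the lowest of the L10 libraries in *Acaca* (143 CPM) and *Idi1* (3.06 CPM), and it also held the smallest milk protein share of the 6 libraries.

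The respiratory chain of the mitochondria makes most of the ATP of a cell. Of 22 of its nuclear genes 4 fell and none rose (median -0.46), and the groups did not overlap, Id2 lower, for 11 of them, against 12.7% of all genes. The mitochondrially encoded genes, counted after their values were seen, moved the other way. Of these 22 genes 6 rose and none fell (median 1.31), and their sum was highest in Id2 replicate 6. *Cox4i1* (ENSMUSG00000031818), a subunit of cytochrome c oxidase, was at 109, 112 and 79.3 CPM and 309, 245 and 281 CPM (-1.47, adjusted p = 2.7e-04) and passed with each library left out. It was at 286 to 378 CPM at L3 and 47.4 to 85.9 CPM at W10. *Atp5a1* (-1.03), *Ndufv1* (-1.25) and *Ndufb5* (-1.19) fell less surely. *Atp5a1* slipped under 2-fold without Id2 replicate 6 or L10 replicate 4 and was called by neither edgeR nor DESeq2, *Ndufv1* was lost without Id2 replicate 6 or L10 replicate 5 (adjusted p up to 0.0302), and *Ndufb5* without Id2 replicate 4 or 6 or L10 replicate 4 or 5 (up to 0.036).

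Among 19 genes for the transport of calcium, zinc, phosphate and water, 2 rose and 2 fell. *Aqp5*, for a water channel, fell from 20.2, 27.2 and 8.63 CPM to 1.38, 1.31 and 0.203 CPM (-3.25, adjusted p = 1.0e-04). *Pthlh*, for the hormone that the lactating gland releases to draw calcium from bone, fell from 11.3, 17.8 and 19.0 CPM to 2.17, 3.93 and 0.814 CPM (-2.45, adjusted p = 2.2e-05). Both passed with each library left out. *Slc30a2*, the exporter that loads zinc into milk, was at 32.2, 19.3 and 30.1 CPM and 2.66, 4.2 and 8.38 CPM (2.29), and *Slc12a2*, the sodium, potassium and chloride cotransporter, at 866, 1076 and 989 CPM and 158, 377 and 267 CPM (1.95). The call of *Slc30a2* held only without L10 replicate 6 (otherwise up to 0.039) and was made by neither edgeR nor DESeq2, and that of *Slc12a2* only without L10 replicate 5 (up to 0.059). *Slc12a2* was not called by edgeR, and neither were *Ctsc*, *Atp6v1c2* and *Adam10* of the lists above or *Areg*. Of 22 genes for the secretory load of the endoplasmic reticulum, 2 rose. *Dnajb9*, a chaperone of the unfolded protein response, rose from 25.5, 33.8 and 38.4 CPM to 94.1, 108 and 87.1 CPM (1.55, adjusted p = 9.5e-04), also with each library left out. *Xbp1*, for the factor that expands this compartment, changed by 1.14, lost without Id2 replicate 2 or 4 or L10 replicate 5 (adjusted p up to 0.018). *Slc3a2* (1 of 20 amino acid transporter genes, 1.26) was lost without Id2 replicate 2 or 4 or L10 replicate 4 (up to 0.052), and *Ugp2* (1 of 12 genes for lactose synthesis and glucose uptake, 1.27) without Id2 replicate 4 or 6 or L10 replicate 4 (up to 0.025).

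Cyclin D1 and several signals of luminal cells fell. *Ccnd1* (ENSMUSG00000070348) was at 23.5, 32.2 and 38.4 CPM at Id2 and 449, 302 and 266 CPM at L10 (-3.38, standard error 0.52, adjusted p = 3.2e-05), and this held with each library left out. The groups did not overlap, with W10 at 387 to 471 CPM near L10 and L3 at 31.9 to 134 CPM nearer Id2. Of 24 genes of mitosis and DNA replication, *Ccnd1* and *Mcm7* fell, and 23 of 24 changes were below 0 (median -1.38). Over all genes, 8715 of 17078 changes were below 0. *Mcm7*, for a subunit of the replicative helicase, was at 2.57, 4.3 and 3.87 CPM against 20.9, 10.7 and 8.81 CPM, and passed only without L10 replicate 6 among fits with a library left out (otherwise up to 0.068). Of 21 genes of luminal identity, *Areg* and *Wnt4* fell, and 16 of 21 changes were below 0 (median -0.60). The groups did not overlap, Id2 lower, for 9 of the 21, against 12.7% of all genes. *Areg*, for the EGF receptor ligand amphiregulin, was at 7.11, 4.49 and 1.22 CPM against 73.4, 80.9 and 16.8 CPM (-3.37), lost without Id2 replicate 4 or 6 or L10 replicate 4 or 5 (adjusted p up to 0.039). *Wnt4*, a target of progesterone, was at 13.8, 3.93 and 14.6 CPM against 143, 53.9 and 121 CPM (-3.24), lost without Id2 replicate 4 or L10 replicate 4 or 6 (up to 0.028).

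Of the luminal identity list, the hormone-responsive markers *Esr1* (0.26, adjusted p = 0.71) and *Foxa1* (-0.27, adjusted p = 0.86) were among the genes that did not pass. *Rspo1* (ENSMUSG00000028871), for a secreted enhancer of Wnt signaling, fell from 266, 21.0 and 163 CPM to 0.79, 1.5 and 2.03 CPM (-5.37, adjusted p = 9.1e-05), also with each library left out. *Calca* (ENSMUSG00000030669), for calcitonin and its related peptide, was at 3.75, 2.06 and 0 CPM against 517, 41.5 and 265 CPM (-6.21, standard error 1.42), lost without Id2 replicate 4 or 6 or L10 replicate 4 or 6 (adjusted p up to 0.027) and in edgeR (adjusted p = 0.016). Both were also low at L3, at 0 to 7.4 CPM and 0.118 to 0.701 CPM, so that L10 stood above the libraries amplified with it as well as above Id2.

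**Figure D4:**
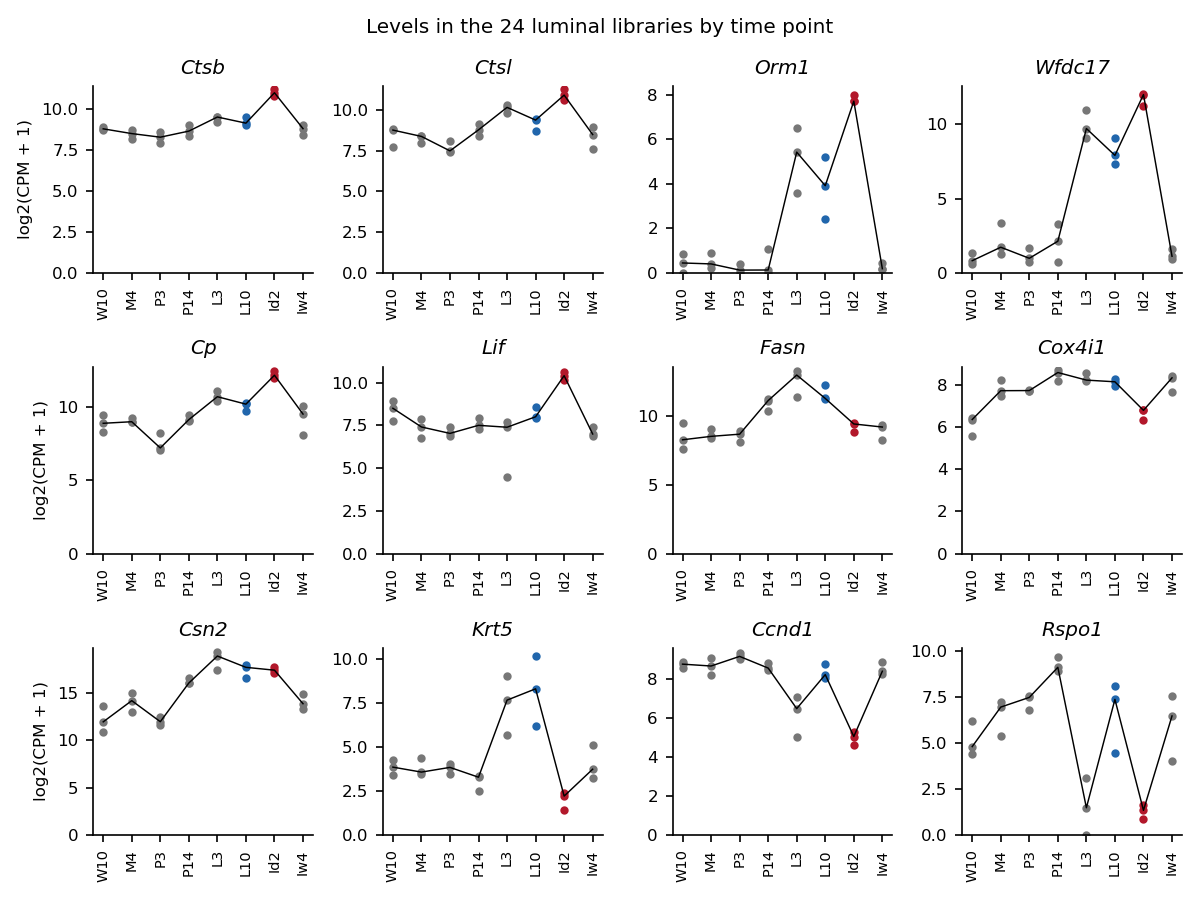
Levels of 12 genes (log2(CPM + 1), vertical axes) in the 24 luminal libraries by time point (horizontal axes), with Id2 in red, L10 in blue, other libraries in grey and a line through the medians of 3. *Ctsb*, *Orm1*, *Cp* and *Lif* are highest at Id2, *Krt5* is highest at L3 and L10, and *Ccnd1* and *Rspo1* are low at L3 and Id2 but not at L10.

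Of the 12 largest falls, 5 were keratin genes (*Krt5*, *Krt6a*, *Krt79*, *Krt14* and *Krt15*). *Krt5* (ENSMUSG00000061527) was at 3.56, 4.12 and 1.63 CPM at Id2 and 71.2, 1143 and 309.7 CPM at L10 (-6.23, standard error 0.79, adjusted p = 2.9e-06), and its partner *Krt14* (ENSMUSG00000045545) at 5.73, 8.23 and 9.15 CPM and 104, 745 and 331 CPM (-5.11, adjusted p = 2.3e-06). *Krt17* (-4.32), *Krt6a* (-5.68), *Krt79* (-5.46) and *Krt15* (-4.57) fell as well, together with *Dsg3* (-4.49) of the desmosome and *Col17a1* (-4.48) of the hemidesmosome. L10 replicate 5 was the highest and replicate 4 the lowest in every gene of this group. *Krt5*, *Krt14* and *Krt17* are themselves members of the basal marker list, whose 10 other genes summed to 157, 329 and 224 CPM at Id2 and to 207, 694 and 372 CPM at L10. What basal cells or their RNA contributed to these levels was not tested. Without replicate 5 *Krt5* changed by -5.25 (adjusted p = 8.4e-05) and *Krt14* by -4.44 (adjusted p = 6.9e-05). *Dsg3* passed at the limit in the least sure of its fits (adjusted p = 0.00997). The call of *Sprr1a*, for a protein of the cornified envelope (-4.84), held only without L10 replicate 4 (otherwise up to 0.038).

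Over the 13 basal markers the median change was -1.15, and 12 of them had changes below 0. The contractile markers of the list did not pass, with changes from -1.40 (*Cnn1*) to -0.20 (*Mylk*). *Acta2* was at 49.2, 116 and 54.5 CPM at Id2 and 33.0, 152 and 97.3 CPM at L10 (-0.22, adjusted p = 0.88), and *Mylk* at 19.2, 58.8 and 28.3 CPM and 14.5, 77.7 and 42.9 CPM (-0.20, adjusted p = 0.88). *Trp63*, for the transcription factor p63 of basal cells, changed by -2.05 (adjusted p = 0.042). In the basal cells *Krt5* was at 4.68, 156 and 6.95 CPM at Id2 and 3417 and 2264 CPM at L10. The basal marker sum of these libraries moved with it, at 1799, 19387 and 1275 CPM at Id2 and 59792 and 68677 CPM at L10. In luminal libraries *Krt5* was at 50.1 to 507 CPM at L3 and at most 33.1 CPM at W10, M4, P3, P14 and Iw4.

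Other genes among the 12 largest changes in each direction have varied roles. *Fndc5*, for the precursor of irisin, was at 34.8, 31.8 and 23.2 CPM against 0.931, 0.797 and 5.87 CPM. *Slc13a2*, for a carrier of dicarboxylates and citrate, was at 25.9, 12.5 and 20.1 CPM against 0.133, 2.17 and 0.863 CPM. *Rasgrp3*, for an activator of Ras, was at 46.6, 42.3 and 52.3 CPM against 1.73, 7.83 and 3.19 CPM. All 3 passed with each library left out, but *Slc13a2* did not in edgeR (adjusted p = 0.014). *Chpt1* (ENSMUSG00000060002), for the enzyme that completes phosphatidylcholine, rose from 59.3, 81.3 and 73.2 CPM to 521, 751 and 846 CPM (3.27, adjusted p = 1.5e-06). *Alox12e* (ENSMUSG00000018907), for an epidermal lipoxygenase, fell from 173, 359.6 and 198 CPM to 5.14, 3.37 and 2.44 CPM (-5.68, adjusted p = 2.0e-08). *Stra6*, for the receptor that takes up retinol, was at 0.395, 0.187 and 0 CPM, no more than 2 reads in a library, against 22.2, 106 and 32.4 CPM at L10 (-5.21, adjusted p = 1.4e-04).

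Over all 24 pathway lists, 52 of 530 genes passed (33 higher and 19 lower), 9.81% against the 4.56% of all genes. Rescaled without the milk protein genes, 17 rose and 36 fell, and the rises of *Ctsc*, *Tpp1*, *Lbp*, *Adam9*, *Adam10*, *Dgat1*, *Xbp1*, *Slc12a2*, *Slc30a2*, *Slc3a2*, *Ugp2*, *Atg9b* and *Msr1* were among those that no longer passed. The lists were chosen with earlier results known, so this is a description of these genes alone. Without Id2 replicate 4, 24 of them passed, and without Id2 replicate 6, 33. Several lists held few or no such genes. Of 32 apoptosis genes only *Trp53* fell (-1.27), lost without any one of the Id2 libraries or L10 replicate 4 (adjusted p up to 0.079), and *Mcl1*, the most abundant by CPM, was at 706, 786 and 928 CPM and 461, 564 and 589.6 CPM (adjusted p = 0.14). Of 26 genes for the engulfment of cells and debris only the scavenger receptor gene *Msr1* rose, with 1.38, 8.61 and 9.97 CPM against 0, 2.9 and 0 CPM, overlapping groups and a call lost without Id2 replicate 4 or 6 or L10 replicate 4 or 6 (adjusted p up to 0.0703). *Mfge8*, the bridging protein of this group, was at 16115, 10543 and 8689 CPM and 6569.7, 15114 and 10178 CPM. Of 20 junction genes only the connexin gene *Gjb6* fell (-2.59), lost without Id2 replicate 4 or 6 or L10 replicate 4 or 6 (up to 0.045). Neither *Msr1* nor *Gjb6* was called by edgeR or DESeq2. None of 22 genes of the early response to tissue dissociation passed (median -0.51).

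The same change was measured in the basal cells of these sorts (3 libraries at Id2 and 2 at L10), where 2274 genes (13.3%) passed, 962 higher (5.63%) and 1312 lower (7.68%). The markers of these basal libraries moved as well. Their 13 basal markers summed to 1799, 19387 and 1275 CPM at Id2 and to 59792 and 68677 CPM at L10, and 12 of the 13 fell. Their 10 fibroblast markers summed to 3406, 11772 and 79365 CPM at Id2 against 1783 and 2360 CPM at L10, and their endothelial markers to 20414 CPM in Id2 replicate 2 and at most 1738 CPM in the other 4. The counts in basal cells and the differences between the cell types therefore compare libraries of unlike composition, whose part in them was not tested. With a basal library left out, 902 (L10 replicate 6) to 2684 (Id2 replicate 4) genes passed in basal cells. Several lists described above moved in basal cells too, where 11 of 38 lysosomal, 6 of 22 iron handling and 11 of 22 endoplasmic reticulum genes rose. In each of these lists 1 gene fell there. Of the luminal genes that rose 107 also rose in basal cells and 6 fell there. Of those that fell 106 also fell in basal cells and 3 rose. The difference between the cell types was tested directly in the same fit. It passed for 637 genes (3.73%), with 383 changes higher (2.24%) and 254 lower (1.49%) in luminal cells. The count was 1086 with the sort as a block and 379 in edgeR (177 higher and 202 lower), and rescaling without the milk protein genes gave 238 higher and 450 lower. It ranged from 222 (without basal L10 replicate 6) to 1118 (without basal Id2 replicate 4) with a basal library left out, and was 422 without basal Id2 replicate 6 and 1031 without basal L10 replicate 5. With 1 basal L10 library left, it was assumed to vary like the other groups. Of the 779 luminal genes 98 passed this test, of which 22 to 87 did so with a basal library left out. Of these 98 genes, 39 rose and had the higher change in luminal cells, 54 fell and had the lower change there, and 5 fell less than in basal cells. The difference contains the same luminal change by which the 779 genes were chosen. The count of 98 and these directions are therefore not independent of that choice.

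*Vtcn1*, for the immune checkpoint protein B7-H4, was at 111, 112 and 119 CPM at Id2 and 33.5, 51.0 and 33.8 CPM at L10 in luminal cells but at 15.3, 20.2 and 3.23 CPM and 83.9 and 89.9 CPM in basal cells, a difference in change of 4.49 (standard error 0.58, adjusted p = 4.9e-06). The rise in luminal cells itself passed only without L10 replicate 5 among the fits with a library left out (otherwise up to 0.034). *Itga8*, for an integrin chain, had 439, 659 and 864 CPM and 71.2, 123 and 118 CPM in luminal cells and 79.9, 474 and 75.0 CPM and 305 and 507 CPM in basal cells (4.09, adjusted p = 0.0014). Its luminal rise was lost without Id2 replicate 6 or L10 replicate 4 (adjusted p up to 0.014). *Rdh1*, for a retinol dehydrogenase, was at 0.198, 0.561 and 0.814 CPM against 9.85, 73.3 and 44.0 CPM in luminal cells and 2.97, 1.07 and 0 CPM against 2.45 and 0 CPM in basal cells (-4.58, adjusted p = 7.5e-04), and *Adh1*, for an alcohol dehydrogenase, at 2.17, 2.81 and 3.66 CPM against 12.9, 242 and 126 CPM and 53.1, 11.6 and 44.3 CPM against 25.9 and 9.97 CPM (-5.17, adjusted p = 0.0032). The difference for *Stra6* was -5.62 (adjusted p = 0.00605). Without basal L10 replicate 6 the difference of *Vtcn1* passed, while those of *Itga8*, *Rdh1*, *Adh1* and *Stra6* did not (adjusted p = 0.022, 0.026, 0.044 and 0.065). Of the lysosomal genes that rose, the difference passed for *Ctsa* alone, with the larger change in luminal cells (1.53, adjusted p = 0.00504). This was lost without basal L10 replicate 6 or basal Id2 replicate 6 (adjusted p up to 0.095). In basal cells it was at 268, 198 and 152 CPM at Id2 and 128 and 219 CPM at L10.

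**Figure D5:**
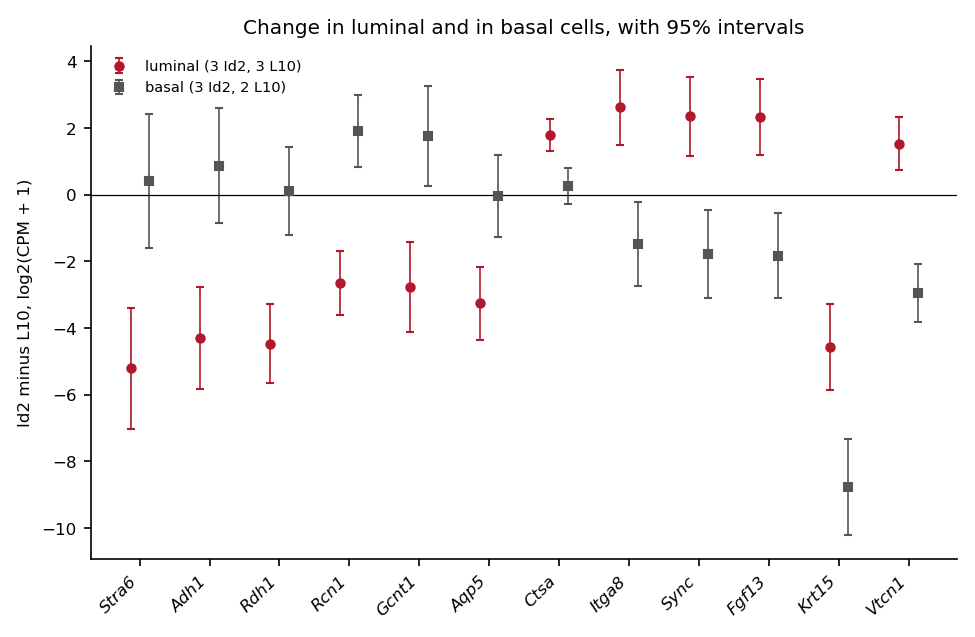
Change from L10 to Id2 (log2(CPM + 1), vertical axis) in luminal (red circles) and basal cells (grey squares) for 12 genes named for a difference between the cell types, with 95% intervals from limma. *Vtcn1* and *Itga8* lie above 0 in luminal and below 0 in basal cells, and *Rdh1* and *Stra6* lie below -4 in luminal cells and near 0 in basal cells.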

How the data were processed

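Luminal and basal cells were sorted from FVB/N mammary glands at 8 time points, and RNA was amplified and sequenced in 47 samples, of which 46 have values. The authors aligned reads with GSNAP, counted them per gene with HTSeq and deposited a signal per gene, the read count divided by the effective library size of edgeR as CPM. Genes low in nearly all libraries had been removed, and per the study's methods also genes with extremely many reads and little variability, so that shares of reads refer to the genes left. The milk protein genes named here were among those left. Whether counting used strand was not clear from the sources used here. All values were whole multiples of 1 read (tolerance 0.01) in all libraries. The floor of 3 reads was 0.218 to 0.610 CPM in the 6 libraries compared, and it covers counting error only. Of 17078 gene identifiers 16897 matched a symbol in GENCODE M21.

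Each of 16 groups (8 time points, luminal and basal) was given a mean in limma 3.58.1 (R 4.3.3, moderated test with trend, log2(CPM + 1)). P-values were adjusted by Benjamini-Hochberg over all genes, and the threshold was 2-fold with an FDR under 0.01. In data simulated for Id2 against L10, luminal (17078 genes), limma recovered 87.0% of 4-fold and 100.0% of 8-fold changes. Every gene was simulated with the same spread between libraries, and only genes with an L10 mean of at least 5 CPM were changed. The recovery for genes with a wider spread or lower levels was not simulated. edgeR 4.0.16 (quasi-likelihood test) and DESeq2 1.42.0 were run on recovered reads as alternatives, with other scalings, filters, pseudocounts, blocks and each luminal and, for the difference between cell types, each basal library left out. Luminal and basal libraries of a sort come from the same mice, and their deviations correlated at 0.02 to 0.38.

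The members, gene lists and tests were chosen with earlier results of these data known. Genes were named as the 12 largest changes in each direction without overlap and with a mean of at least 5 CPM, up to 4 passing genes of each list with its most abundant gene, passing markers, genes named by the study, and the 5 largest differences between cell types in each direction. *Lalba*, *Wap*, *Csn1s2b*, *Lif*, *Stat3*, *Socs3*, *Chpt1*, *mt-Atp6*, *mt-Atp8* and the further list members given with values were named after their values were seen, as was the CACGTG search. Some genes that this rule named are not reported here, although the counts include them. Promoter windows were from RefSeq (GRCm38.p6), and 11722 tested genes had at least 1.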

Additional observations from a re-analysis of the deposited data

Results flagged for a closer look

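The change from L10 to Id2 differed between luminal and basal cells, by the interaction term of limma (Benjamini-Hochberg over all genes), for 13 of the genes named. Over all genes it passed for 637 (3.73%). The 5 largest differences in each direction were named because they passed this test, so the count of 13 is not a result about the named genes. Positive values are differences in log2(CPM + 1) with the higher change in luminal cells. The basal marker sum of the basal libraries was 1799, 19387 and 1275 CPM at Id2 and 59792 and 68677 CPM at L10, their fibroblast sum reached 79365 CPM in Id2 replicate 6, and the part of this in the differences was not tested. *Vtcn1* (4.49, adjusted p = 4.9e-06), *Fgf13* (4.16, adjusted p = 0.0014), *Itga8* (4.09, adjusted p = 0.0014) and *Rcn1* (-4.57, adjusted p = 6.3e-05) passed with each luminal library left out and in edgeR. With each of the 5 basal libraries left out, *Vtcn1* and *Rcn1* passed throughout, while *Fgf13* and *Itga8* were lost without basal L10 replicate 6 (adjusted p up to 0.0263 and 0.0219). *Rdh1* (-4.58, adjusted p = 7.5e-04) also passed with each luminal library left out but not in edgeR (adjusted p = 0.0275) or without basal L10 replicate 6 (0.0257).

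The other 8 rested on single luminal libraries or on the tool as well. *Adh1* (-5.17) was lost without L10 replicate 5 (adjusted p = 0.0124) and *Sync* (4.12), of whose exon bases 25.4% overlap another gene, without Id2 replicate 6 (adjusted p = 0.0108). *Gcnt1* (-4.53), for an enzyme that branches O-glycans, was lost without L10 replicate 4 (adjusted p = 0.0135) and in edgeR (0.0121). *Ctsa* (1.53) was lost without Id2 replicate 2 or L10 replicate 5 (adjusted p up to 0.0153). *Krt15* (4.20) fell in luminal (-4.57) and basal cells (-8.77), and the difference was lost without Id2 replicate 2 or L10 replicate 4 (up to 0.0148) and in edgeR (0.234). *Stra6* (-5.62) was lost without Id2 replicate 4 or 6 or L10 replicate 5 (up to 0.0184) and in edgeR (0.0123). *Aqp5* (-3.21) passed only without L10 replicate 6 (otherwise up to 0.0308), and *Mvd* (-2.72), which changed by -0.86 in luminal and 1.86 in basal cells, only without Id2 replicate 2 (otherwise up to 0.0343). In edgeR *Aqp5* (0.0831) and *Mvd* (0.0124) did not pass. Without basal L10 replicate 6 none of these 8 passed, *Ctsa*, *Krt15* and *Stra6* were also lost without basal Id2 replicate 6, *Mvd* without any one of the basal Id2 libraries and *Aqp5* without any one of the 5 basal libraries. All 13 passed with the sort as a block.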

How the results depend on the processing

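Against 779 genes, 1456 passed at an FDR under 0.05, 569 with the replicate number as a block in the 24 luminal libraries (669 there without the block), and 425 (Id2 replicate 4) to 693 (L10 replicate 5) with a library left out. For that block, a luminal P14 library is labelled replicate 5, although its deposited values carry the number 6. Of the 779, edgeR also called 529 and DESeq2 659. With the 6 libraries alone, limma passed 0 genes, 0 of the 52 list genes and 0 of the 80 named genes, where 3380 genes had an unadjusted p under 0.05. Over all libraries edgeR called 586 and DESeq2 1038. The list genes numbered 91 at an FDR under 0.05 and 24 (Id2 replicate 4) to 40 (Id2 replicate 2) with a library left out, and the named genes 48 (Id2 replicate 4) to 65 (L10 replicate 5). Of the 80 named genes that passed, 65 kept the call in edgeR, 73 in DESeq2, 66 with a pseudocount of 0.1 and 65 without the milk protein genes in the scaling. None of them reversed, and 40 of them passed in all 6 such fits. Id2 and L10 replicate numbers share only 4 and 6, from different mice, and their deviations correlated at 0.04 and 0.05. Scaling and test moved the split of the difference between cell types from 383 higher and 254 lower in luminal cells to 238 and 450 without the milk protein genes, 177 and 202 (379 in all) in edgeR and 361 and 494 in DESeq2. With the sort as a replicate block it passed for 1086 genes, and at an FDR under 0.05 for 1689, and none of the 80 named genes lost its call under that block. With a luminal library left out it passed for 480 to 606 genes, and with a basal library left out, an alternative chosen after seeing the data, for 222 to 1118.

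The genes whose values changed sign were not among those that passed. Without the milk protein genes in the scaling the changes were -0.157 (*Cd24a*), -0.246 (*Csn2*), -0.110 (*Hspa5*), -0.0934 (*Mfge8*), -0.13 (*Nfkbiz*) and -0.12 (*S100a8*). In edgeR they were -0.0392 (*Csn2*), 0.16 (*Lyz2*) and 0.0252 (*Scd1*), in DESeq2 0.21 (*Lyz2*) and 0.0701 (*Scd1*), and with the number as a replicate block in the 24 luminal libraries -0.18 (*Csn2*) and 0.42 (*Lyz2*). With a library left out the changes ranged over -0.0358 to 0.33 (*Cd24a*), -0.40 to 0.30 (*Csn2*), -0.0036 to 0.40 (*Hspa5*), -0.87 to 1.07 (*Igf1*), -1.004 to 1.12 (*Lyz2*), -0.12 to 0.48 (*Mfge8*), -0.14 to 0.38 (*Nfkbiz*), -0.12 to 0.54 (*S100a8*), -0.33 to 0.32 (*Scd1*) and -0.99 to 0.12 (*Vwf*). The milk share difference was -0.13 points for caseins alone and ranged from -4.78 to 3.06 with a library left out. The cause of these shifts was not tested. Genes near the floor of 3 reads are limited by depth.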

Other observations

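The following gene families were counted after their values were seen, and the values of basal cells come from the libraries of unlike composition described above. Over all genes, 2.15% rose and 2.41% fell in luminal cells, and 5.63% rose and 7.68% fell in basal cells. Of 22 mitochondrially encoded genes 6 rose and none fell in luminal cells (median change 1.31), and in basal cells 1 rose and 2 fell (median -0.35). They summed to 86055, 63049.7 and 234677 CPM at Id2 and 31073, 47029 and 36297 CPM at L10, with Id2 replicate 6 the highest. *mt-Co2* was at 37.3, 42.5 and 90.7 CPM against 1.06, 5.51 and 3.19 CPM (3.80, adjusted p = 1.1e-07), *mt-Tp*, a transfer RNA gene, at 20.9, 57.1 and 149.9 CPM against 2.66, 7.9 and 1.47 CPM (3.74, adjusted p = 8.8e-05) and *mt-Atp6* at 40.1, 39.3 and 90.1 CPM against 5.99, 9.57 and 7.43 CPM (2.64, adjusted p = 2.9e-04). *mt-Atp8* changed by 2.81 (adjusted p = 1.3e-05). These genes passed with each library left out, but nuclear copies share their sequence, and the assignment of reads is uncertain.

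Of 31 keratin genes 8 fell (*Krt5*, *Krt6a*, *Krt6b*, *Krt14*, *Krt15*, *Krt17*, *Krt23* and *Krt79*) and none rose in luminal cells. In basal cells 8 keratin genes fell as well. *Krt6a* and *Krt6b* are near-identical copies. Of 6 genes for desmosomal cadherins, which hold epithelial cells together, 4 fell (*Dsc2*, *Dsc3*, *Dsg1b* and *Dsg3*), and the 6 summed to 178, 196 and 195 CPM at Id2 and 382, 617 and 507 CPM at L10. In basal cells 1 of the 6 fell. The luminal keratin *Krt8* was at 478, 326 and 243 CPM against 689.6, 903 and 839 CPM (-1.26, adjusted p = 0.054) and did not pass.

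The list of mitosis and DNA replication genes had a median change of -1.38 in luminal and 0.90 in basal cells, and the difference between the cell types passed for 2 of its 24 genes. *Aurkb*, a mitotic kinase, was at 0.79, 1.68 and 1.42 CPM and 17.4, 9.86 and 4.66 CPM in luminal cells (-2.20, adjusted p = 0.073) and *Mki67* at 37.1, 99.9 and 122 CPM and 298, 153 and 148 CPM (-1.29, adjusted p = 0.31).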
